A study of Mus musculus with 19 samples.

Results

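Sorted astrocytes and sorted infiltrating monocytes of mice with experimental autoimmune encephalomyelitis (EAE), the mouse model of multiple sclerosis, were compared gene by gene. Every library labelled Astrocyte (8) and every library labelled Monocytes (4) was used, which makes 12 of the 19 libraries of the study, and the microglia libraries were not used. The study asked how Xbp1 in astrocytes acts on gene programmes of cells in the central nervous system. All mice were wild type C57Bl/6 females at postnatal day 85, all had received a lentivirus into the brain, and all had EAE induced with 25 µg of a peptide of myelin oligodendrocyte glycoprotein in complete Freund's adjuvant. No healthy mice and no mice without virus are among the 12 libraries. The virus carried either a scrambled hairpin (shScrmbl; 4 astrocyte and 2 monocyte libraries) or a hairpin against Xbp1 (shXbp1; 4 and 2), together with GFP. By the names of the vectors both hairpins sat behind a Gfap promoter, which is active in astrocytes and in few other cells. Each nervous system was taken from 1 mouse and sorted by flow cytometry. The labels give no antibodies, and whether equally numbered astrocyte and monocyte libraries share a mouse is not stated.

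Astrocytes are the glia that wrap synapses and vessels, take up glutamate and potassium, supply neurons with metabolites and lipids, and turn reactive in inflammation. Monocytes are blood phagocytes that enter the nervous system in EAE through the chemokine receptor CCR2. There they engulf debris, make reactive oxygen through the phagocyte NADPH oxidase, release interleukin 1β and chemokines, and take on macrophage or antigen-presenting properties. XBP1 drives the transcription of genes for folding and secretion when the endoplasmic reticulum is under stress, and becomes active when IRE1α splices its messenger RNA.

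RNA was counted at transcript 3′ ends. The deposited table of astrocytes lists 6376 genes, 6361 of them under a usable gene name, and that of monocytes 3776. Of these, 3355 carry the same symbol in both (52.7% of the 6361 and 88.9% of the 3776). A further 3006 are listed only for astrocytes and 421 only for monocytes, so listing for astrocytes alone was common. Levels of these shared genes are given as CPM, counts scaled to a common library total after the 12 libraries were normalized together. For a gene listed in 1 table only, the CPM is its count scaled to the library's total in that table, a different scale that is not to be set beside the first, and no difference is given. Table totals ran from 32842 to 302003 counts in astrocytes (median 69313) and were 74340, 112676, 15654 and 56625 counts in monocytes, so 1 count was worth 4.33 to 34.7 CPM and 9.12 to 51.2 CPM. For each gene the lowest, median and highest astrocyte value is given, and the 4 monocyte values in the order shScrmbl 1, shScrmbl 2, shXbp1 1, shXbp1 2. Means carry the SD over 8 or 4 libraries. Log2 differences are astrocyte minus monocyte with their standard error, from a limma voom model with the hairpin as covariate, and a gene passed where its Benjamini-Hochberg adjusted p over the 3355 genes was under 0.05. P-values measure the spread between libraries.

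The markers went with the labels only in part. Ttr, the transthyretin gene of choroid plexus epithelium, alone took 14.3% to 26.7% of the counts of the astrocyte libraries, and the choroid plexus list took 17.3% to 31.5%. The astrocyte identity list took 0.670% to 1.03%. Of its 40 genes, 24 are listed only in the astrocyte table, among them the glutamate transporters Slc1a2 (158 ± 118 CPM) and Slc1a3, the water channel Aqp4, the gap junction gene Gja1 and S100b (254 ± 109.9 CPM). Gfap is listed in neither table. Oligodendrocyte genes took 0.521% to 1.38% of astrocyte counts, ependymal genes 0.102% to 0.354%, and microglial genes 0.248% to 0.549%. In monocyte libraries the same lists took 0.0552% to 0.109%, 0% and 0.521% to 0.850%. The libraries labelled Astrocyte thus carried more counts of choroid plexus markers than of astrocyte markers, and they are called astrocyte libraries here by their label.

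The monocyte libraries held myeloid genes and also lymphocyte genes. The monocyte and macrophage list took 1.66% to 5.40% of their counts, against 0.107% to 0.936% in astrocyte libraries. The T and NK cell list took 0.447% to 0.824%, against 0.00753% to 0.0219%. The B and plasma cell list took 0.0686% to 0.192% and is not listed in the astrocyte table at all. Among the 421 genes listed only for monocytes were the defining monocyte genes Ly6c2 (255 ± 70.6 CPM), Ccr2 (249 ± 153 CPM) and Plac8 (588 ± 337 CPM), and also the cytotoxic granule gene Nkg7 (1155 ± 417 CPM) and the immunoglobulin joining chain Igj (1171 ± 501 CPM). Ttr took 0.343% to 0.945% of monocyte counts. In these bulk samples, fewer cells of a type and less RNA per cell cannot be told apart.

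**Figure D1:**
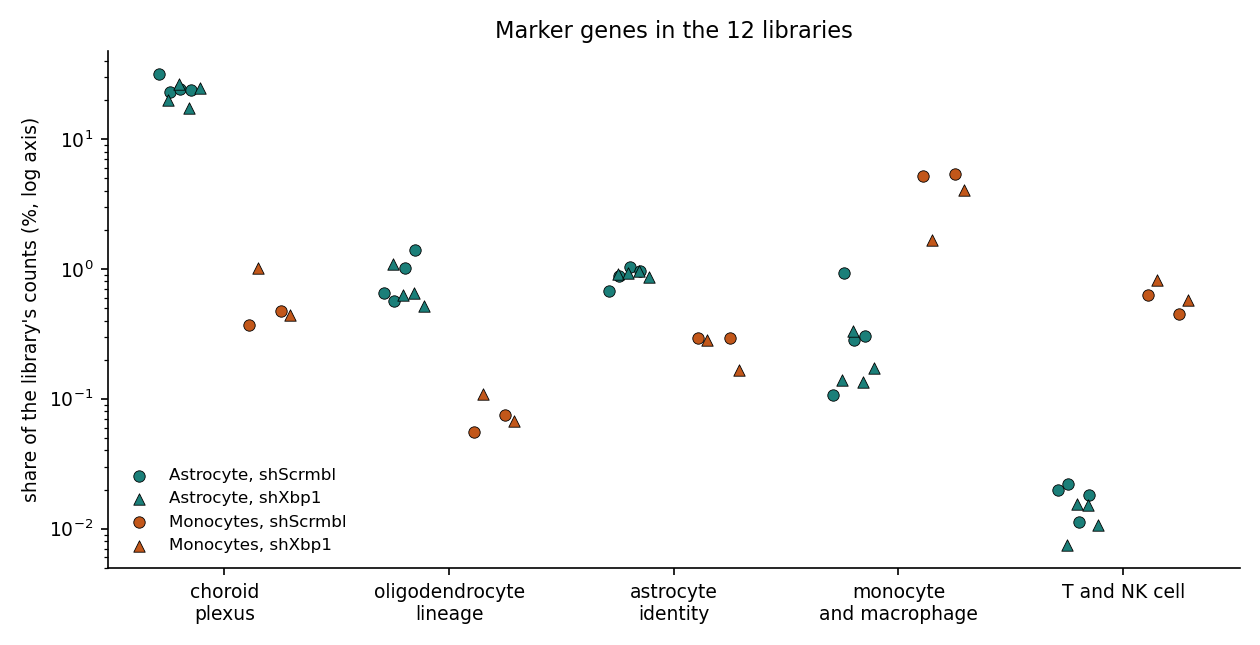
Share of each library's counts (percent of the library's own table, log axis) that fell on 5 marker lists, for 8 astrocyte libraries (green) and 4 monocyte libraries (orange), with circles for shScrmbl and triangles for shXbp1. Choroid plexus genes took 17.3% to 31.5% of astrocyte counts, and 1 monocyte library (shXbp1 1, 1.66%) and 1 astrocyte library (shScrmbl 2, 0.936%) stand apart on the monocyte and macrophage list.

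Libraries stood apart within both labels. Astrocyte shScrmbl 2, the deepest library, had 0.936% of its counts on monocyte and macrophage genes, where the other astrocyte libraries had 0.107% to 0.333%. Monocyte shXbp1 1, the shallowest, had 1.66%, where the other 3 had 4.04% to 5.40%, while its share of T and NK cell genes was the highest of the 4 (0.824%). On the first principal component of log CPM (38.8% of the variance) all 8 astrocyte libraries lay below 0 and all 4 monocyte libraries above it. Astrocyte shScrmbl 2 lay close to 0, at -0.38. The other astrocyte libraries lay at -29.7 to -12.8 and the monocyte libraries at 33.1 to 50.0. Correlations of log CPM over genes were 0.713 to 0.920 between astrocyte libraries, 0.634 to 0.871 between monocyte libraries and 0.441 to 0.743 across the labels. These describe genes within pairs of libraries and are not independent. Without both libraries that stood apart, 805 genes passed, against 767 with all 12.

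Xbp1, the gene aimed at by the hairpin, was higher in monocyte libraries. Astrocyte libraries had 25.0, 73.6, 93.5 and 34.7 CPM with shScrmbl and 40.5, 63.6, 38.4 and 95.5 CPM with shXbp1, and monocyte libraries had 127, 182, 307 and 129 CPM. The lowest monocyte value lay above the highest astrocyte value. The log2 difference was -1.40 ± 0.41 (2.64-fold, limma voom adjusted p = 0.011). It missed the threshold without monocyte shScrmbl 2 (limma voom adjusted p = 0.053) or without monocyte shXbp1 1 (0.051). The mean in astrocyte libraries was 56.7 ± 32.3 CPM with shScrmbl and 59.5 ± 26.6 CPM with shXbp1 (n = 4 each, exact two-sided permutation p = 0.857, smallest possible 0.0286), on 50 counts in all. A lower level with the hairpin was not detected.

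Over the 3355 shared genes, 767 passed (22.9%). Astrocyte libraries were higher for 297 of them (8.85% of genes tested) and monocyte libraries for 470 (14.0%). These shares of all genes are the background for every count of list members below. Beyond a 2-fold difference (limma treat) 176 genes passed (5.25%), 39 higher in astrocyte libraries (1.16%) and 137 in monocyte libraries (4.08%). The groups did not overlap for 156 genes higher in astrocyte libraries (4.65%) and 260 higher in monocyte libraries (7.75%). Of the 767 genes, 38.7% were higher in astrocyte libraries. That share was 22.8% when each library was scaled to the total of its own table, which moved the median of all genes from -0.000494 to -0.23, and 50.6% in a limma trend fit on log2(CPM + 1), which passed 520 genes. Without monocyte shXbp1 2, 108 genes passed beyond 2-fold. Among the genes named below, the log2(CPM + 1) fit ended the call of C3, Cd74, H2-DMb1, Spp1, Ifngr1 and Junb, which stayed in the same direction. The shared genes had to be listed in both tables, so genes with few counts in 1 cell type are under-represented among them.

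**Figure D2:**
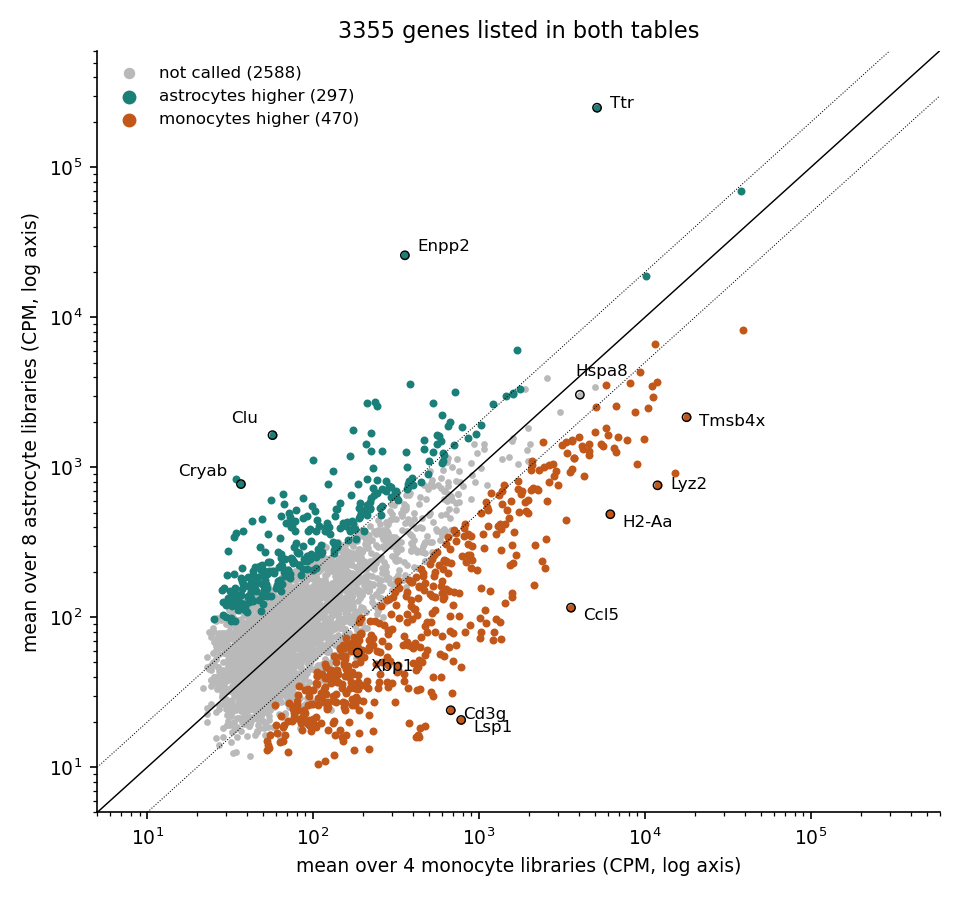
Mean level of each of the 3355 shared genes over 4 monocyte libraries (x axis, CPM, log) and 8 astrocyte libraries (y axis, CPM, log), with the line of equality and dotted lines at 2-fold. Green points (297) passed with astrocyte libraries higher and orange points (470) with monocyte libraries higher. Ttr and Enpp2 lie farthest above the line, and Ccl5, Lsp1 and Cd3g farthest below it among the labelled genes.

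Genes of blood phagocytes were higher in monocyte libraries for most members measured. Of the 23 monocyte and macrophage genes measured in both tables, 21 were higher in monocyte libraries and 0 in astrocyte libraries (median log2 difference -3.11, against -0.000494 over all genes). Of 31 pan-myeloid signalling genes 22 were higher in monocyte libraries (median -2.35). Both counts are over genes listed in both tables only, and 13 and 8 further members are listed only for monocytes. Without both libraries that stood apart, 21 and 26 passed. On log2(CPM + 1) the counts fell to 14 and 16.

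Among the phagocyte genes, Cd14, the co-receptor for bacterial lipopolysaccharide, had 20.3, 106 and 385 CPM in astrocyte libraries and 998, 2108, 512 and 2741 CPM in monocyte libraries. The groups did not overlap, and the log2 difference was -3.33 ± 0.49 (limma voom adjusted p = 1.41e-05). The lysozyme genes Lyz1 and Lyz2, whose 3′ ends are close copies so that counts could be split between them, had means of 15170.1 ± 7862 and 11935 ± 6236 CPM in monocyte libraries and 913 ± 1367 and 759 ± 1180.2 CPM in astrocyte libraries. Their groups overlapped, because astrocyte shScrmbl 2 had 4224 CPM of Lyz1 and monocyte shXbp1 1 had 3734 CPM. Lgals3, which encodes galectin 3 of activated macrophages, had 1378, 1168, 256 and 1563 CPM against an astrocyte median of 101 CPM (8.61-fold, limma voom adjusted p = 6.34e-07). Apoc2, an activator of lipoprotein lipase, differed 12.2-fold (limma voom adjusted p = 3.00e-09), although its monocyte values ran from 102 to 2044 CPM.

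Signalling genes shared by leukocytes were also higher in monocyte libraries. Fcer1g, the signalling chain of Fc receptors, had 179, 291 and 1346 CPM in astrocyte libraries and 3739.6, 2938, 1432 and 5247 CPM in monocyte libraries. The highest astrocyte value was again that of shScrmbl 2, and the groups did not overlap (log2 difference -2.89 ± 0.37, limma voom adjusted p = 6.97e-07). Its partner adaptor Tyrobp differed 6.90-fold, the lysosomal membrane gene Laptm5 4.54-fold and the cysteine protease Ctss 6.78-fold, each without overlap. Rac2, a small GTPase of blood cells, had 79.9 ± 36.3 CPM in astrocyte libraries and 1236 ± 308 CPM in monocyte libraries (13.6-fold, limma voom adjusted p = 1.92e-10). Csf3r, the receptor for granulocyte colony stimulating factor, went against its list without passing (log2 difference 0.41 ± 0.54). Csf1r, the receptor that keeps microglia and macrophages alive, had 272 ± 177 CPM and 519 ± 215 CPM and did not pass (-0.87 ± 0.38). Without astrocyte shScrmbl 2 it did, at a log2 difference of -1.32 (limma voom adjusted p = 0.003).

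The phagocyte NADPH oxidase transfers electrons to oxygen through a membrane pair, encoded by Cybb and Cyba, that cytosolic subunits switch on. Of its 7 genes 5 were higher in monocyte libraries (median log2 difference -3.12). Cyba had 464, 529, 205 and 621 CPM against a highest astrocyte value of 181.8 CPM (8.68-fold, limma voom adjusted p = 1.77e-06). Cybb had 886 ± 509.7 CPM against 88.7 ± 119.7 CPM (9.32-fold), with 1 astrocyte library, shScrmbl 2, at 380.9 CPM. The cytosolic subunit Ncf4 differed 10.3-fold, and Ncf1 (-1.24 ± 0.49) did not pass. Rac1, the widely expressed GTPase of the complex, did not pass either (0.10 ± 0.45, 95% interval -0.82 to 1.01).

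MHC class II genes, which present peptides to CD4 T cells, were higher in monocyte libraries for 6 of 7 members (median log2 difference -2.85). H2-Aa, the α chain of I-A, had 179, 377 and 1446 CPM in astrocyte libraries and 7128, 5812, 3632 and 8224 CPM in monocyte libraries. The groups did not overlap although astrocyte shScrmbl 2, at 1446 CPM, stood above the next astrocyte library at 590.6 CPM (log2 difference -3.72 ± 0.32, limma voom adjusted p = 9.99e-11). Its partner H2-Ab1 had 239 ± 171 CPM and 2395 ± 604 CPM (10.1-fold), and H2-Eb1 of I-E had 149.5 ± 58.8 CPM and 1161 ± 186 CPM (7.19-fold). The invariant chain Cd74 and the peptide editors H2-DMa and H2-DMb1 differed 7.19-fold, 7.17-fold and 4.67-fold. H2-Oa, a brake on peptide editing, did not pass (-1.30 ± 0.52). Ciita, the master regulator of these genes, is listed only for monocytes (29.0 ± 24.6 CPM).

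Class II promoters share a Y box with the core GATTGG, the site of the factor NF-Y, and promoters of myeloid genes often hold the core GAGGAA of sites for the factor PU.1. The windows below lie upstream of the start, from RefSeq's promoters on GRCm38.p6, in the direction of the gene. Capitals mark the match at the centre of each window, as the letters or their reverse complement. The H2-Eb1 window also holds the reverse complement CCAATC, 35 bases upstream of the start and left in lower case. The windows are shown because the 3 class II genes moved together and Laptm5 is a pan-myeloid gene with a match near its start. H2-Aa lies at chr17:34287837-34287902 (minus strand), H2-Eb1 at chr17:34305777-34305842 and H2-DMb1 at chr17:34153099-34153164 (plus strand), and Laptm5 at chr4:130913248-130913313 (plus strand).
H2-Aa: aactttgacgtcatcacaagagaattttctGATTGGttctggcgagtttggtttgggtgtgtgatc
H2-Eb1: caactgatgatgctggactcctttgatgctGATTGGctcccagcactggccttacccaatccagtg
H2-DMb1: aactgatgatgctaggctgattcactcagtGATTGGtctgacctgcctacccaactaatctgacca
Laptm5: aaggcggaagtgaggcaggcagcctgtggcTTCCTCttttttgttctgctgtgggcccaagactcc

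In the 250 bases before the start, searched on both strands, GATTGG was present in 5 of the 5 class II promoters that RefSeq's table holds, against 16.6% of all 27025 promoters and 23.3% of the 2595 promoters of shared genes. Among genes beyond 2-fold it was present in 46.4% of 28 promoters of the genes higher in astrocyte libraries and in 22.4% of 98 promoters of those higher in monocyte libraries. GAGGAA was present in 17 of 27 promoters of pan-myeloid genes and in 6 of 12 of T and NK cell genes, in 27.6% of the 98 and in 17.9% of the 28, against 25.9% of all promoters and 26.6% of those of shared genes. TTGGCA is part of the site bound by nuclear factor I, a regulator of glial genes. It was present in 10.7% of the 28 and 7.14% of the 98, against 14.1% of all promoters and 11.6% of those of shared genes. Promoters are counted here by gene symbol, and a gene with several held the letters if any of them did. These shares describe letters in a window and were not tested.

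MHC class I genes, which show peptides from inside the cell to CD8 T cells, were higher in monocyte libraries for 9 of 17 members (median log2 difference -1.22). B2m, the light chain of every class I molecule, had 243, 715 and 3307 CPM in astrocyte libraries and 9208, 8457, 4450.2 and 13793 CPM in monocyte libraries (9.11-fold, limma voom adjusted p = 6.76e-05). The heavy chains H2-D1 and H2-K1, near copies that can share counts, differed 3.26-fold and 3.05-fold. The immunoproteasome subunit Psmb8 differed 9.58-fold without overlap. The chaperones Canx and Calr, which also serve many other proteins, had log2 differences of 0.70 ± 0.37 and 0.68 ± 0.33 and did not pass.

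Of 28 interferon response genes 26 had a difference below 0. Of the 28, 11 were higher in monocyte libraries and 1 in astrocyte libraries (median log2 difference -1.27). Ifitm3, which blocks entry of viruses, had 502 ± 300.1 CPM and 1755 ± 1215 CPM (3.32-fold, limma voom adjusted p = 0.0028). Stat2, which carries the signal of type I interferons, did not pass (0.29 ± 0.53), and the lysosomal thiol reductase Ifi30 differed 6.38-fold. Ifi27l1 was higher in astrocyte libraries, with 1074, 1826 and 2371 CPM against 253, 246, 0 and 193 CPM (log2 difference 3.32 ± 0.41, limma voom adjusted p = 9.96e-08). The count of 11 fell to 7 without monocyte shScrmbl 1, to 6 without monocyte shXbp1 2 and to 6 on log2(CPM + 1). A further 8 members, led by Ifitm1 (221 ± 169 CPM) and Zbp1 (214 ± 216 CPM), are listed only for monocytes, and Iigp1 only for astrocytes.

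Of 26 chemokines, cytokines and their receptors 17 were higher in monocyte libraries and 0 in astrocyte libraries (median log2 difference -1.91). The count of 17 fell to 6 in the limma trend fit on log2(CPM + 1). Il1b, the inflammatory cytokine interleukin 1β, had 49.9, 83.3 and 394 CPM in astrocyte libraries and 1729, 2499.8, 1228 and 3148 CPM in monocyte libraries. The groups did not overlap (log2 difference -3.81 ± 0.42, 14.0-fold, limma voom adjusted p = 5.68e-08). Cxcl2, which draws neutrophils, had 661, 1715, 358 and 407 CPM, and its astrocyte maximum was 90.9 CPM (13.6-fold). Ccl5, a chemokine of activated T cells and macrophages, had the largest difference of the list, 3543, 2336, 3734 and 4755 CPM against a highest astrocyte value of 312.6 CPM (34.4-fold, limma voom adjusted p = 2.21e-09). Ifngr1, through which cells sense interferon γ, differed 5.84-fold. Cx3cr1, the fractalkine receptor of microglia and patrolling monocytes, had 213 ± 104 CPM and 425 ± 107 CPM and did not pass (-0.91 ± 0.36). It passed without astrocyte shScrmbl 2 (-1.24) or without monocyte shScrmbl 1 (-1.10). Spp1, osteopontin, had 1575, 867, 767 and 2977 CPM against a highest astrocyte value of 761.8 CPM, and lost its call without monocyte shXbp1 2 (limma voom adjusted p = 0.082).

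Complement genes were higher in monocyte libraries for 7 of 9 members and in astrocyte libraries for 1 (median log2 difference -1.76). C1qb and C1qc, chains of the recognition molecule C1q, differed 3.25-fold and 3.39-fold with overlap at astrocyte shScrmbl 2 and, for C1qb, also at astrocyte shScrmbl 4. The anaphylatoxin receptor C3ar1 had 41.7 ± 41.6 CPM and 353 ± 82.6 CPM (7.88-fold, limma voom adjusted p = 2.11e-06). C3 itself, a gene often used for reactive astrocytes, had 0, 75.9 and 125 CPM in astrocyte libraries and 366, 246, 256 and 171 CPM in monocyte libraries, without overlap. C4b went the other way, with 104 ± 41.8 CPM and 28.5 ± 23.8 CPM (2.70-fold, limma voom adjusted p = 0.0257). It missed the threshold without monocyte shScrmbl 2 (0.081), monocyte shXbp1 1 (0.067) or monocyte shXbp1 2 (0.067). The inhibitors Cd59a (198 ± 62.1 CPM) and Serping1 are listed only for astrocytes.

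Genes of the lysosome were higher in monocyte libraries for 13 of 26 members and in astrocyte libraries for 2 (median log2 difference -1.05). The cathepsins Ctsb and Ctsd differed 5.47-fold and 2.17-fold, and Npc2, which moves cholesterol out of lysosomes, 3.09-fold. Ctsb had 8084, 8156, 2251 and 8310.0 CPM, and the lowest of these lay below the 4086 CPM of astrocyte shScrmbl 2. Atp6v1a, a subunit of the proton pump, had 563 ± 225 CPM and 210.2 ± 63.8 CPM and was higher in astrocyte libraries (2.42-fold, limma voom adjusted p = 0.0099). Without monocyte shXbp1 2 its adjusted p was 0.073. Iron storage genes included Ftl1, the ferritin light chain, at 45649, 47369, 14016 and 48532 CPM against 3839, 7559.5 and 16833 CPM in astrocyte libraries (4.69-fold, limma voom adjusted p = 1.48e-06), and Trf, transferrin, which was 2.83-fold higher in astrocyte libraries without overlap.

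Genes that build and turn over actin filaments were higher in monocyte libraries for 17 of 30 members and in astrocyte libraries for 1 (median log2 difference -1.11). The count of 17 fell to 10 on log2(CPM + 1). Tmsb4x, the thymosin that binds actin monomers, had 1323, 1906 and 3398 CPM in astrocyte libraries and 17826, 14114, 11816 and 27671 CPM in monocyte libraries. The lowest monocyte value lay above the highest astrocyte value (log2 difference -3.01 ± 0.24, limma voom adjusted p = 3.82e-11). Lcp1, the actin bundler of leukocytes, differed 10.7-fold, and the Arp2/3 subunit Arpc1b 5.10-fold. Actb differed 3.19-fold (3724 ± 464 CPM and 11896 ± 1029 CPM) and Actg1 1.99-fold, both without overlap. Ezr, which ties actin to the plasma membrane in processes and microvilli, was the exception (4.39-fold higher in astrocyte libraries, limma voom adjusted p = 7.05e-04). The myosin light chain Myl6 did not pass, with 1830.5 ± 327 CPM and 1969.6 ± 599 CPM and an interval of -0.62 to 0.39.

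Among annexins and S100 proteins 9 of 12 were higher in monocyte libraries and 1, S100a1, in astrocyte libraries (median log2 difference -1.40). S100a10 and S100a6 differed 8.44-fold and 11.2-fold, both without overlap. Anxa2 differed 4.23-fold (limma voom adjusted p = 7.89e-05). S100a1, which binds calcium in muscle and brain, had 405, 874 and 1019 CPM in astrocyte libraries and 211, 100.4, 51.2 and 129 CPM in monocyte libraries (5.69-fold, limma voom adjusted p = 1.19e-05). The count of 9 fell to 5 without monocyte shXbp1 2. S100a4 is listed only for monocytes (269.6 ± 121 CPM).

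Nearly all cytosolic ribosomal protein genes were higher in monocyte libraries. Of 72 cytosolic members 70 were higher in monocyte libraries, 0 in astrocyte libraries, and Rpl31 and Rpl38 did not pass (median log2 difference -1.54, folds of those that passed 1.65 to 4.89). Summed over the list, astrocyte libraries had 61694 to 85859 CPM and monocyte libraries 181948 to 335182 CPM. Rps18 had 870.2, 1396 and 1798 CPM in astrocyte libraries and 5413, 5438, 4553 and 10537 CPM in monocyte libraries (4.67-fold, limma voom adjusted p = 1.68e-08). Rpl32 differed 4.21-fold. Many of these genes have processed copies in the genome, so counts of single members are uncertain. The direction held under each scaling tried, with 72 of 72 passing when libraries were scaled to their own tables. T and NK cell genes moved with the ribosomal genes (6 of 6 measured members higher in monocyte libraries), and their part in this difference was not tested.

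Of those T and NK cell genes, Cd3g, Cd3d and Lck were among the 12 genes with the lowest p on the monocyte side. Cd3g, a chain of the T cell receptor complex, had 0, 22.9 and 62.3 CPM in astrocyte libraries and 548, 401, 665 and 1092 CPM in monocyte libraries (23.1-fold, limma voom adjusted p = 9.99e-11). Cd3d had a log2 difference of -4.09 ± 0.38. The kinase Lck differed 17.7-fold, Ms4a4b 17.3-fold, Cd8b1 8.71-fold and the costimulatory receptor Icos 9.64-fold. All 6 passed beyond 2-fold, where 4.08% of genes did in this direction. Summed over the 6, monocyte libraries had 2399 to 3320 CPM and astrocyte libraries 81 to 286 CPM. A further 13 members are listed only for monocytes, among them Cd2 (387 ± 95.2 CPM), Gzma (268 ± 155 CPM), Cd8a and Cd4. Lsp1 and Hcst, which serve lymphocytes and myeloid cells alike, differed 30.2-fold and 19.2-fold.

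**Figure D3:**
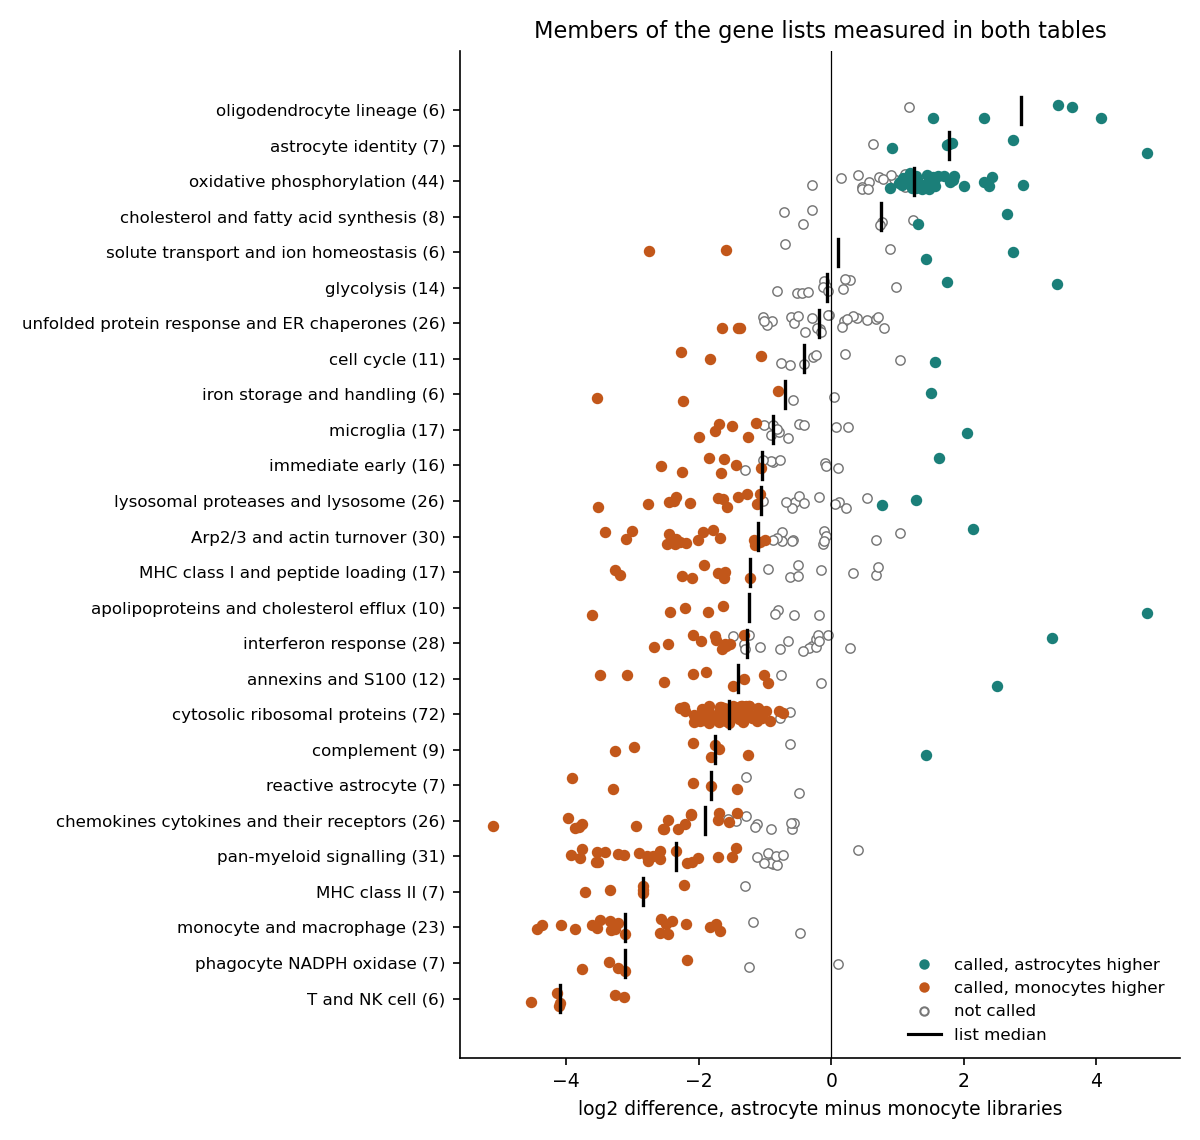
Log2 difference (astrocyte minus monocyte libraries) of every member of each list with at least 6 members in both tables, with the number of members in brackets and the list median as a black bar. Filled points passed at an adjusted p under 0.05 (green, astrocyte libraries higher; orange, monocyte libraries higher). Medians run from -4.10 for T and NK cell genes to 2.86 for oligodendrocyte genes, all 72 ribosomal members lie below 0, and 43 of 44 oxidative phosphorylation members lie above it.

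In the other direction, Enpp2 and Ttr of the choroid plexus list had the largest differences. Ttr had 155598, 258802 and 335809 CPM in astrocyte libraries and 3585, 4534, 7571 and 4926 CPM in monocyte libraries (51.0-fold, limma voom adjusted p = 5.33e-20). Enpp2, autotaxin, an enzyme of lysophospholipid synthesis, differed 75.4-fold, and Cab39l, an adaptor of the kinase LKB1, 18.1-fold. These 3 were the members listed in both tables, and 26 of 30 members are listed only for astrocytes, led by the prolactin receptor Prlr (953 ± 607 CPM) and the folate receptor Folr1 (825 ± 181 CPM). Of 20 ependymal genes 17 are listed only for astrocytes, with Pcp4l1 (1014 ± 281 CPM) the highest.

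Astrocyte identity genes were higher in astrocyte libraries for 6 of the 7 measured in both tables, against 8.85% of all genes (median log2 difference 1.78). Clu, clusterin, a lipid carrier and chaperone that choroid plexus also makes, had 1054, 1459 and 2278 CPM in astrocyte libraries and 28.1, 54.7, 102 and 42.8 CPM in monocyte libraries. The groups were far apart (log2 difference 4.77 ± 0.45, limma voom adjusted p = 9.24e-10). Glul, glutamine synthetase, which turns glutamate into glutamine, differed 3.42-fold, and the brain aldolase Aldoc 3.35-fold, both without overlap. Sparcl1, which promotes synapse formation, had 463 ± 267 CPM and 87.4 ± 13.3 CPM, and lost its call without monocyte shXbp1 2 (1.54, limma voom adjusted p = 0.056). Ttyh1, a chloride channel family gene, had overlapping groups (1.89-fold, limma voom adjusted p = 0.0169) and missed the threshold when libraries were scaled to their own tables (0.052). The metallothionein Mt1 did not pass (0.63 ± 0.37). In shScrmbl libraries alone 1 of the 7 passed.

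Genes used as markers of reactive astrocytes did not follow the label. Of 24, 7 were measured in both tables, 5 were higher in monocyte libraries and 0 in astrocyte libraries (median log2 difference -1.82), and 12 are listed in neither. On log2(CPM + 1) 3 passed. Vim, the intermediate filament vimentin, had 151, 298 and 561 CPM in astrocyte libraries and 942, 921, 716 and 685 CPM in monocyte libraries, without overlap (2.68-fold, limma voom adjusted p = 0.0011). Cd44, the hyaluronan receptor, differed 9.85-fold, and Srgn, a proteoglycan of secretory granules, 15.0-fold. Leukocytes also express each of these. Stat3 did not pass (-0.49 ± 0.42). Serpina3n (70.9 ± 61.6 CPM), Serping1, Cp and Fkbp5 are listed only for astrocytes.

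Oligodendrocyte genes were higher in astrocyte libraries for 5 of 6 members (median log2 difference 2.86). Cryab, a small heat shock protein of glia, had 473, 767 and 1042 CPM in astrocyte libraries and 28.1, 54.7, 0 and 64.3 CPM in monocyte libraries (16.9-fold, limma voom adjusted p = 3.05e-08). Ptgds, the prostaglandin D synthase of oligodendrocytes and meninges, differed 10.7-fold. Mbp had 1198 ± 896 CPM and 166 ± 60.2 CPM (4.93-fold), and its adjusted p was 0.094 without monocyte shXbp1 2.

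Most genes of oxidative phosphorylation were higher in astrocyte libraries. Of 44 nuclear members 31 were higher in astrocyte libraries, 0 in monocyte libraries, and 43 of 44 had a difference above 0 (median log2 difference 1.25, folds of those that passed 1.84 to 7.43). Ndufa4, a subunit of the respiratory chain, had 1094, 1548 and 2695 CPM in astrocyte libraries and 211, 164, 153 and 364 CPM in monocyte libraries (7.43-fold, limma voom adjusted p = 1.16e-07). Atp5g1, a subunit of the ATP synthase rotor, had 2667 ± 763 CPM and 527 ± 148 CPM (4.94-fold), and Cox4i1 and Cox6c of complex IV differed 3.48-fold and 2.84-fold. Ndufa6 was the 1 member on the other side (-0.28 ± 0.33, not passing). There were 27 that passed when libraries were scaled within their own table, and 30 without both libraries that stood apart. Choroid plexus genes took 17.3% to 31.5% of the counts of the same astrocyte libraries, and their part in this difference was not tested. Mitochondrially encoded genes are listed in neither table.

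Glycolytic genes as a list lay near 0 (median log2 difference -0.0623), with 2 of 14 higher in astrocyte libraries, where 8.85% of all genes were. None passed on the monocyte side, where 1 did with edgeR or with libraries scaled within their own table and 2 without both libraries that stood apart. The 2 were Aldoc and Ldhb, the heart form of lactate dehydrogenase, which had 1804, 2562 and 3743 CPM in astrocyte libraries and 281, 292, 51.2 and 321 CPM in monocyte libraries (10.6-fold, limma voom adjusted p = 9.97e-09). Ldha, the muscle form, had 1000.2 ± 333 CPM and 2059 ± 1374 CPM and did not pass (-0.82 ± 0.32). It passed without monocyte shXbp1 1 (-1.15), without astrocyte shScrmbl 2 (-0.96) or without astrocyte shXbp1 2 (-0.94). Aldoa, Pkm, Pgk1 and Gpi1 did not pass, with log2 differences between -0.08 and 0.29.

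Of 8 cholesterol and fatty acid synthesis genes measured for both cell types, 2 were higher in astrocyte libraries, the desaturase Scd2 (495 ± 107 CPM and 71.5 ± 53.3 CPM, 6.31-fold, limma voom adjusted p = 1.40e-05) and Fdps (2.48-fold), which lost its call without monocyte shScrmbl 2 (0.83, limma voom adjusted p = 0.19). A further 14, led by Hmgcs1 (145 ± 38.9 CPM), are listed only for astrocytes. Of all genes tested 8.85% were higher in astrocyte libraries, and 3006 genes in all are listed only for astrocytes. Among 10 apolipoproteins and lipid handling genes 5 were higher in monocyte libraries and Clu in astrocyte libraries. Apoe, the main lipid carrier of the brain, had 1395, 2885 and 4527 CPM in astrocyte libraries and 10474, 19926, 4450.2 and 9916 CPM in monocyte libraries. The lowest monocyte value lay just under the highest astrocyte value (3.64-fold, limma voom adjusted p = 6.79e-07). The lipid droplet gene Plin2 differed 5.38-fold.

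Transporter genes were mostly a matter of listing. Of 32 solute and ion transport genes 17 are listed only for astrocytes, with Fxyd1 (480.3 ± 127 CPM), Atp1b1 (437 ± 162 CPM) and Slc12a2 (370.1 ± 166 CPM) the highest, and 1 only for monocytes, the lactate exporter Slc16a3 (38.2 ± 20.4 CPM). Over all genes, 3006 are listed only for astrocytes and 421 only for monocytes. Of the 6 transport genes measured for both cell types, 2 were higher on each side. Among all genes tested, 8.85% were higher in astrocyte libraries and 14.0% in monocyte libraries. Fxyd5, a regulator of the sodium pump, was 6.71-fold higher in monocyte libraries (limma voom adjusted p = 6.19e-08). Dbi, which binds acyl-CoA and acts on GABA receptors, was named as 1 of the 12 genes with the lowest p on the astrocyte side, at 3588 ± 943 CPM and 382 ± 156 CPM (8.82-fold), as was the tubulin Tuba1a (6.91-fold).

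Of 26 genes of the unfolded protein response, the pathway of XBP1, 3 were higher in monocyte libraries, 0 in astrocyte libraries and 23 did not pass (median log2 difference -0.19). The share higher in monocyte libraries is near the 14.0% of all genes. Besides Xbp1, Ssr4 of the translocon passed (134 ± 53.5 CPM and 427 ± 103 CPM, 3.12-fold, limma voom adjusted p = 4.65e-04). The chaperones Hspa5 and Hsp90b1, which rise with stress in the endoplasmic reticulum, had 1331 ± 605 and 1436 ± 491 CPM in astrocyte libraries and 1071 ± 235 and 934 ± 215 CPM in monocyte libraries. Their intervals were -0.37 to 0.75 and -0.03 to 1.12. Dnajc3 did not pass (0.80 ± 0.42) and passed without astrocyte shScrmbl 2 (1.08, limma voom adjusted p = 0.044). The count of 3 fell to 1 without monocyte shScrmbl 2 and was 5 with DESeq2 or with libraries scaled within their own table.

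For some abundant genes the intervals were narrow enough to bound the difference. The 95% interval lay within a log2 difference of -1 to 1 for 234 genes (6.97%). The highest of these by mean level were Hspa8, the constitutive heat shock protein (-0.86 to 0.02), the ubiquitin gene Ubb (-0.90 to 0.27), Myl6, Serf2 (-0.96 to 0.10), prothymosin Ptma (-0.65 to 0.37) and Gapdh (-0.67 to 0.45). Gapdh had 851, 1528 and 2119 CPM in astrocyte libraries and 1729, 1387, 1074 and 2120.3 CPM in monocyte libraries, with the groups overlapping throughout.

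**Figure D4:**
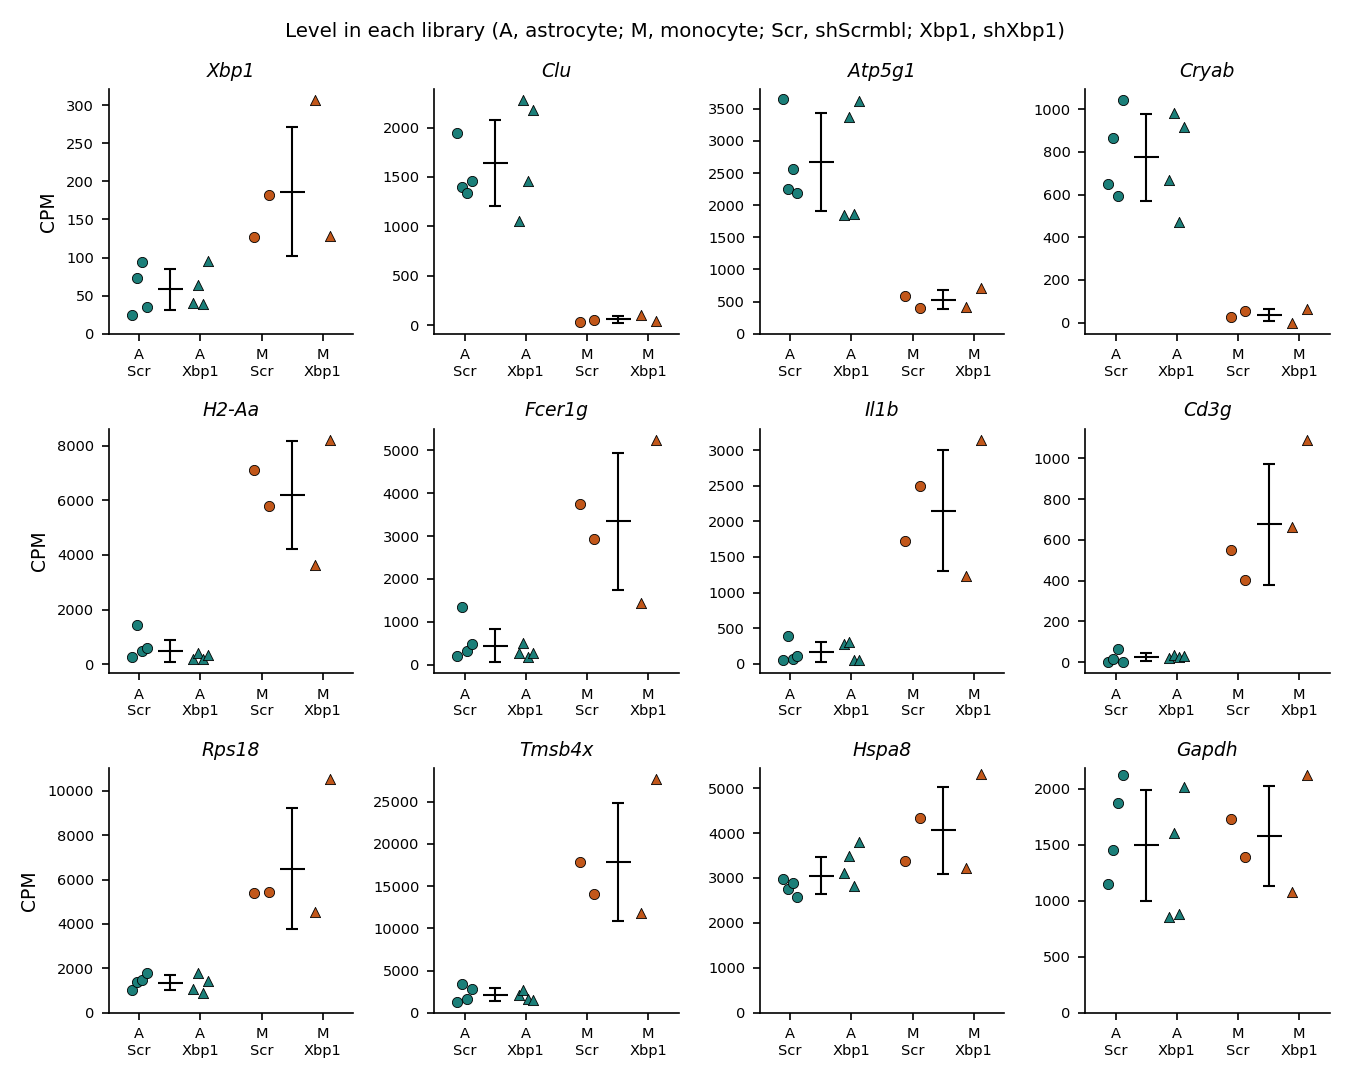
Level of 12 genes in each library (CPM, linear axes from 0), with circles for shScrmbl, triangles for shXbp1, green for astrocyte and orange for monocyte libraries, and the mean ± SD per label in black. Clu, Atp5g1 and Cryab are higher in every astrocyte library, Xbp1, H2-Aa, Fcer1g, Il1b, Cd3g, Rps18 and Tmsb4x in every monocyte library, and Hspa8 and Gapdh overlap.

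Of 16 immediate early genes 14 had a difference below 0, 7 were higher in monocyte libraries and 1 in astrocyte libraries (median log2 difference -1.05). Nfkbia, the inhibitor induced by NF-κB, had 198 ± 71.0 CPM and 649 ± 249.8 CPM (3.07-fold, limma voom adjusted p = 2.83e-04), Junb differed 5.93-fold and Atf3 3.58-fold. Egr1 was 3.10-fold higher in astrocyte libraries and missed the threshold without monocyte shScrmbl 1 (0.06) or monocyte shXbp1 2 (0.061). Fos and Jun did not pass (-0.87 ± 0.38 and -0.10 ± 0.44). Of 11 cell cycle genes 3 were higher in monocyte libraries, led by the chromatin gene Hmgb2 (3.54-fold), and the cyclin Ccnd2 was 2.95-fold higher in astrocyte libraries, with an adjusted p of 0.086 without monocyte shXbp1 2. Mki67, the proliferation marker, did not pass (-0.27 ± 0.69). Of all genes tested, 14.0% were higher in monocyte libraries and 8.85% in astrocyte libraries. Of 17 microglia genes 6 were higher in monocyte libraries and 1, Sparc, in astrocyte libraries (4.14-fold, limma voom adjusted p = 2.01e-05). The 6 became 3 without astrocyte shScrmbl 1 or monocyte shScrmbl 2, and 11 without astrocyte shScrmbl 2, and on log2(CPM + 1) they were 3.

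The hairpin did not detectably change the difference between the cell types. In the interaction test 0 of 3355 genes passed with limma voom (0.00%), edgeR or DESeq2, 168 genes (5.01%) had an unadjusted limma voom p under 0.05, and the smallest adjusted p was 0.637. All 767 genes had the same sign in both hairpin groups, which together had chosen them. Fitted within shScrmbl libraries 357 genes passed, and within shXbp1 libraries 503. Ttr differed by 6.07 ± 0.31 with shScrmbl and 5.19 ± 0.33 with shXbp1, H2-Aa by -3.22 ± 0.42 and -4.34 ± 0.46, and Xbp1 by -1.28 ± 0.57 and -1.57 ± 0.61 (log2). The within-hairpin counts rest on 2 monocyte libraries each: without monocyte shXbp1 2, 117 genes passed within shXbp1, and without 1 library those within shScrmbl ran from 148 to 475. The lowest unadjusted interaction p were those of Ddx6, Alg3, Leprot and Mmp14, with few counts in each monocyte library.

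**Figure D5:**
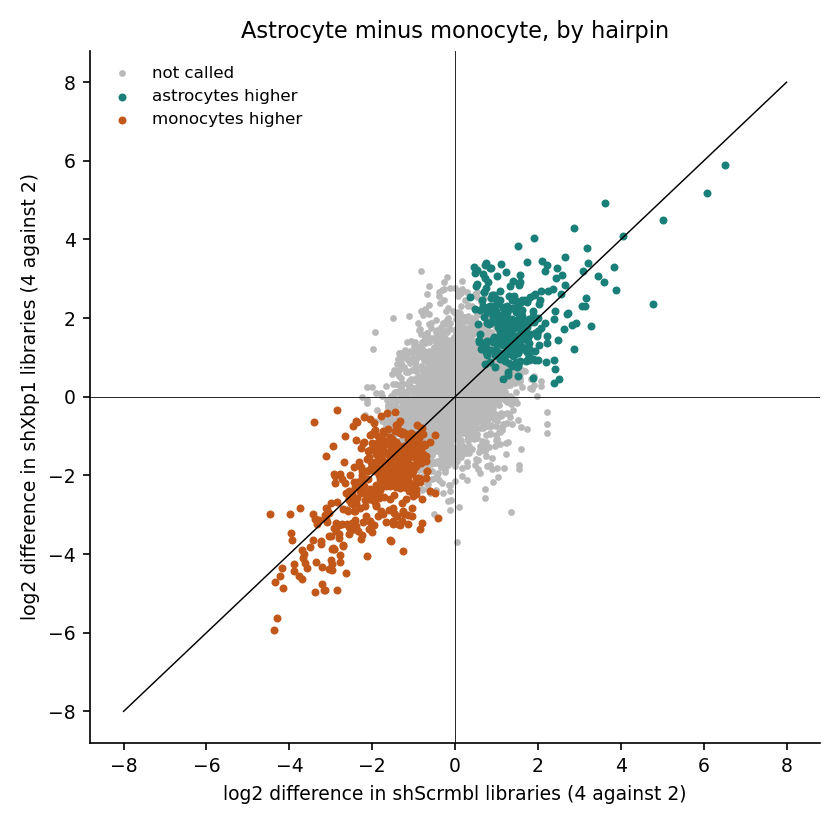
Log2 difference between astrocyte and monocyte libraries for each shared gene, within shScrmbl libraries (x axis) and within shXbp1 libraries (y axis), each from 4 against 2 libraries, with the line of equality. The 767 genes that passed in the joint fit (green, astrocyte libraries higher; orange, monocyte libraries higher) lie in the quadrants of 1 sign, and 0 genes passed the test of a difference between the hairpins.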

How the data were processed

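RNA of flow-sorted cells was counted by 3′ digital gene expression, per the labels' protocols. The authors deposited 1 table per cell type, holding for each gene and library a signal they had already normalized. BWA 0.7.10, limma 3.34.1 and the mm10 build appear in the submitters' processing notes with no role attached, and the counter, annotation and any filter on low genes are not given in the sources used here. The deposited signal could be turned back into whole counts: 100% of the 45664 values above 0 in astrocytes and of the 13747 in monocytes came out whole within 0.01 of a count after division by the column's smallest value above 0. The sources do not say if counts are of reads or of unique molecules. The authors scaled the tables separately, so recovered counts of the 3355 genes sharing a symbol were scaled together (trimmed mean of M-values, edgeR). Names turned into dates (15, astrocytes) were left out, and 7 columns of microglia were not used. All shared genes had at least 10 counts.

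The main test was limma voom (offset 0.5) with robust empirical Bayes, cell type plus hairpin, Benjamini-Hochberg adjusted p under 0.05, with limma treat for differences beyond 2-fold and an interaction model. It was fitted to log2 values of the recovered counts, a scale chosen because the files hold normalized signal and not counts. edgeR's quasi-likelihood test on the recovered counts passed 754 genes (702 shared with the 767) and DESeq2 798. Models ran in R 4.3.3 (DESeq2 1.42.0, edgeR 4.0.16, limma 3.58.1), and tables and figures in Python 3.11.15 (matplotlib 3.10.9, pandas 2.3.3, scipy 1.17.1, numpy 2.4.6). Replicates of a group differed by more than counting noise (chi-square per degree of freedom 1.47 to 4.91 over 14 pairs). Repeat libraries of a sample can differ so too, and the measure cannot decide whether the libraries are independent. Each library was counted as its own replicate.

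The comparison, the gene lists and the tests were chosen with earlier results of these data known. Named genes were Xbp1, the 12 with the lowest p in each direction, the 6 highest with intervals within a log2 difference of -1 to 1, up to 8 members of each list by level, up to 2 that led against their list, and 4 from the interaction. Rpl31, Rpl38, Slc1a3, Aqp4, Gja1, Cp and Fkbp5 were named after their values were seen. A few further genes picked this way are left out of the text. The alternatives were other scalings, filters, tests, pseudocounts, a replicate block, each hairpin alone and each library left out. Leaving out 2 libraries together and the search for GATTGG were added after seeing the data. Promoters came from RefSeq on GRCm38.p6, with 2595 of 3355 shared genes matched by symbol. Two-sided exact permutation tests were used for Xbp1 within a cell type.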

Additional observations from a re-analysis of the deposited data

Results flagged for a closer look

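A library was picked out here where its distance to the nearest other library of its cell type, divided by the range of that cell type, passed Dixon's 95% critical value. Of 273 groups of values examined 37 had such a library (13.6%), and chance gives about 1 in 20 where values are normal. Astrocyte shScrmbl 2 accounted for 21 of the 37, monocyte shXbp1 1 for 7 and monocyte shXbp1 2 for 4.

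Astrocyte shScrmbl 2 was the highest astrocyte library for H2-Aa (1446 CPM), H2-Ab1 (606 CPM), Ttyh1 (7328 CPM), Lyz1 (4224 CPM), Lyz2 (3636 CPM), Cybb (380.9 CPM), Ctss (4709 CPM), Fcer1g (1346 CPM), Laptm5 (675 CPM) and Csf3r (303 CPM). It was also the highest for Cd74 (143 CPM), B2m (3307 CPM), H2-K1 (887 CPM), Cyba (181.8 CPM), Ctsd (8436 CPM), Ctsb (4086 CPM), C1qc (593 CPM), C3ar1 (134 CPM) and Plin2 (190.4 CPM). Its shares of counts on the monocyte and macrophage list (0.936%) and the microglia list (0.549%) were the highest too. All but Ttyh1 among these 19 genes are on myeloid, antigen presentation, lysosome, complement or lipid lists. The genes examined were those named in the text, and many had been chosen from these same lists. The share of such genes among all those examined was not worked out.

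Monocyte shXbp1 1 was lowest for Ldhb (51.2 CPM), Hcst (255.8 CPM), Ctsb (2251 CPM) and Ftl1 (14016 CPM), and highest for Calr (460.4 CPM), Sparc (512 CPM) and the choroid plexus share of counts (1.02%). Monocyte shXbp1 2 was highest for Tuba1a (386 CPM) and Rps18 (10537 CPM), and lowest for Lck (343 CPM) and the astrocyte identity share (0.166%). Astrocyte shScrmbl 4 was highest for Aldoc (486 CPM), S100a10 (278 CPM) and Icos (174 CPM), astrocyte shXbp1 1 was listed at 0 for Stat2, and astrocyte shScrmbl 1 had the lowest astrocyte identity share (0.670%).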

How the results depend on the processing

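Over 27 alternative settings no named gene changed direction with a call, and 86 of the 147 named genes that passed did so under every setting that gave an adjusted p. The 767 genes became 356 in shScrmbl and 490 in shXbp1 libraries alone, and the 176 beyond 2-fold became 65 and 87, with fewer libraries in the fit. On log2(CPM + 1), 93 passed beyond 2-fold and 156 within shScrmbl (357 in the main fit), and 562 passed within shScrmbl without both libraries that stood apart. The cause was not tested. With shScrmbl libraries alone, members higher in monocyte libraries fell from 11 to 3 for interferon response, 17 to 9 for chemokines and cytokines, 9 to 4 for MHC class I and for annexins and S100, 7 to 4 for complement, 6 to 1 for microglia and 3 to 0 for the unfolded protein response. With shXbp1 libraries alone they fell from 9 to 4 for annexins and S100, 7 to 2 for immediate early and 5 to 2 for reactive astrocyte genes, and oxidative phosphorylation genes higher in astrocyte libraries from 31 to 20. Leaving out 1 library gave 559 (monocyte shXbp1 2) to 849 (astrocyte shScrmbl 2) genes in all, 108 to 229 beyond 2-fold, 148 to 475 within shScrmbl, 117 to 580 within shXbp1 and 0 to 0 in the interaction. Where this left 1 monocyte library with a hairpin, its spread was assumed to be that of the other groups. With the replicate number as a block 648 genes passed (605 shared with the 767) and 138 beyond 2-fold. Deviations of same-numbered libraries correlated at -0.04 and -0.05 (shScrmbl) and 0.18 and 0.32 (shXbp1). With 2 monocyte libraries per hairpin, their deviations from the group mean mirror each other. These values therefore cannot decide whether equal numbers mark the same mouse, and the main fit did not treat them as pairs. The scaling to own-table totals passed 173 genes on the astrocyte side and 586 on the monocyte side, against 297 and 470. With 1 count worth up to 51.2 CPM in the shallowest library, genes at a few counts limit the precision, and intervals cover the spread between libraries only.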
